A study of Mus musculus with 16 samples.

Results

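The genes described here are the classical MHC (H2) genes of the mouse and the genes that work with them in antigen presentation. They were chosen by name, and all 8 (*H2-K1*, *H2-D1*, *B2m*, *H2-Aa*, *H2-Ab1*, *H2-Eb1*, *Cd74* and *Ciita*) were found among the 24340 genes listed in both the count and the RPKM tables. RNA came from the vomeronasal organ (VNO), the sense organ of pheromone detection, of Hsd:ICR mice aged 12 weeks from generation 88 of a selection experiment. The 4 High Runner (HR) lines 3, 6, 7 and 8 had been bred for high voluntary wheel running, and the 4 Control lines 1, 2, 4 and 5 had been bred without this selection. Each line gave 1 male and 1 female pool of 3 mice, which makes 16 libraries with 15998552 to 70875276 counts on genes (median 37366329). The VNO was taken whole, so fewer cells of a type and less RNA per cell cannot be told apart.

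MHC class I molecules present peptides from inside the cell to T cells and are made of a polymorphic heavy chain, here *H2-K1* or *H2-D1*, and the invariant light chain beta-2-microglobulin, the product of *B2m*. MHC class II molecules are pairs of an alpha and a beta chain on antigen-presenting cells. *H2-Aa* and *H2-Ab1* encode the alpha and the beta chain of I-A, *H2-Eb1* encodes the beta chain of I-E, *Cd74* encodes the invariant chain that guides class II molecules through the cell, and *Ciita* is the master co-activator of class II transcription. In the VNO, basal sensory neurons also express a separate family of nonclassical class I genes called H2-Mv, and *B2m* is part of their surface complex.

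The class I and class II genes share a promoter design in which a TGACG element (the X2 box) and a reversed CCAAT element, ATTGG (the Y box), stand at a fixed spacing. To show what these genes have in common, the 120 bases before the transcription start given by RefSeq are shown 5′ to 3′ on the strand of the gene on GRCm38.p6, with TGACG and CCAAT on either strand in capitals. RefSeq promoters were matched for 5 of the 8 genes.
H2-K1, chr17:34000348-34000467, minus strand: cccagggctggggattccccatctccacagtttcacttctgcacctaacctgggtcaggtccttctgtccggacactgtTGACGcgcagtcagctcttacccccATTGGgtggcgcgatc
H2-D1, chr17:35262974-35263093, plus strand: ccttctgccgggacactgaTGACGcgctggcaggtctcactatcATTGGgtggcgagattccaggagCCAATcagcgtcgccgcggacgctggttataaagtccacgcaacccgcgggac
B2m, chr2:122147567-122147686, plus strand: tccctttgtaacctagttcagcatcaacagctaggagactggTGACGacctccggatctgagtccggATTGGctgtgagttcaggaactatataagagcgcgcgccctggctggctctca
H2-Aa, chr17:34287824-34287943, minus strand: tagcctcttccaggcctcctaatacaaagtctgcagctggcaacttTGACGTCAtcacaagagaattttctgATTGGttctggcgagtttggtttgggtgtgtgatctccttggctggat
H2-Eb1, chr17:34305747-34305866, plus strand: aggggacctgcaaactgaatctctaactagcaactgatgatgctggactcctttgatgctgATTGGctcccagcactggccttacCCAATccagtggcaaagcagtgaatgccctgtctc

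In *H2-K1*, *H2-D1* and *B2m* the ATTGG began 25 bases after the start of the TGACG, and in *H2-Aa* it began 26 bases after it. The *H2-Eb1* window held ATTGG and CCAAT but no TGACG. Among the 120-base windows of all 32851 RefSeq promoters, 21.3% held CCAAT on either strand and 11.7% held TGACG on either strand. The pair at the spacing of 25 bases was found in 22 windows (0.067%), 3 of which are those of *H2-K1*, *H2-D1* and *B2m*. These matches describe the reference sequence of C57BL/6J and not the promoters that the HR and Control mice carry.

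The H2 genes lie together on chromosome 17. On GRCm38 with the GENCODE annotation, *H2-K1* lies at chr17:33996017-34000347, *H2-Ab1* at chr17:34257689-34269419, *H2-Aa* at chr17:34282744-34287823, *H2-Eb1* at chr17:34305867-34316674 and *H2-D1* at chr17:35262730-35267499. GENCODE starts *H2-D1* upstream of the RefSeq start, so that the window shown for *H2-D1* lies within the gene as placed here. *B2m* lies on chromosome 2 and *Ciita* on chromosome 16, outside the MHC region, as does *Cd74* on another chromosome. Reads were kept only if they matched the reference without a mismatch and at a single place. A read from an allele that differs from C57BL/6J within the read was therefore not counted for its gene. It could be counted for another gene if it matched that gene exactly. For the polymorphic H2 genes, a line with less RNA and a line with another allele cannot be told apart. The classical class I genes also share sequence with each other and with further genes. Of all 75-base words of its transcripts, the length of a read, *H2-K1* had 96.9% in no other gene and *H2-D1* 94.4%, against 100% for *B2m*, *H2-Aa*, *H2-Ab1*, *H2-Eb1* and *Cd74* and 99.2% for *Ciita*, which shares words with *Dexi*. The gene that shared most words with *H2-K1* was *H2-Q10* (89 words), and for *H2-D1* it was *H2-Q1* (110 words). One of the words that *H2-K1* and *H2-D1* have in common is shown because a read from it would fall at more than 1 place and be dropped. It lies in coding exon 4 of both genes, at chr17:33997441-33997515 on the minus strand in *H2-K1* and at chr17:35265829-35265903 on the plus strand in *H2-D1*, and it also occurs in 2 other genes.
H2-K1 and H2-D1, exon 4: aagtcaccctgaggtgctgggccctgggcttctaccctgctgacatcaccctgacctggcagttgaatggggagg

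Levels of different genes were compared in RPKM (reads per kilobase, scaled to library size), as deposited. Over the 8 lines, *Cd74* had the highest mean level, 699 ± 105 RPKM (SD, n = 8 lines), followed by *B2m* with 669 ± 99.3 RPKM. *H2-D1* (116 ± 62.3), *H2-Aa* (75.3 ± 28.4), *H2-Ab1* (67.8 ± 25.9), *H2-Eb1* (58.3 ± 40.1) and *H2-K1* (52.7 ± 33.3) followed, and *Ciita* was lowest with 4.12 ± 0.338 RPKM. Reads that differ from the reference were not counted for their gene, so the polymorphic H2 genes may stand lower in this order than their RNA. The size of this loss was not tested. Taken gene by gene, *B2m* was thus well above *H2-K1* and *H2-D1* in every library. *Cd74* was likewise well above *H2-Aa*, *H2-Ab1* and *H2-Eb1*. The H2-Mv genes, whose surface complex also holds *B2m*, were not part of this comparison. *B2m* exceeded *H2-D1* in 16 of 16 libraries, and *H2-K1* exceeded *Ciita* in 16 of 16. The neighbours between these did not hold their order over lines. *H2-D1* was above *H2-Aa* in 6 of 8 lines, *H2-Aa* above *H2-Ab1* in 6 of 8, *H2-Ab1* above *H2-Eb1* in 5 of 8 and *H2-Eb1* above *H2-K1* in 4 of 8, and *Cd74* was above *B2m* in 7 of 8 lines but in only 10 of 16 libraries.

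Next, the levels of each gene were followed over the lines in CPM, counts scaled to library size, from the count tables after TMM normalization. The question was whether the male and the female pool of a line deviate together from the other lines of the same linetype. Across all genes tested, 27.7% differed between lines within linetype (4757 of 17181, edgeR quasi-likelihood test over 6 contrasts, adjusted *p* under 0.05). Of the 8 genes described here, 7 passed this test, all but *Ciita*.

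**Figure D1:**
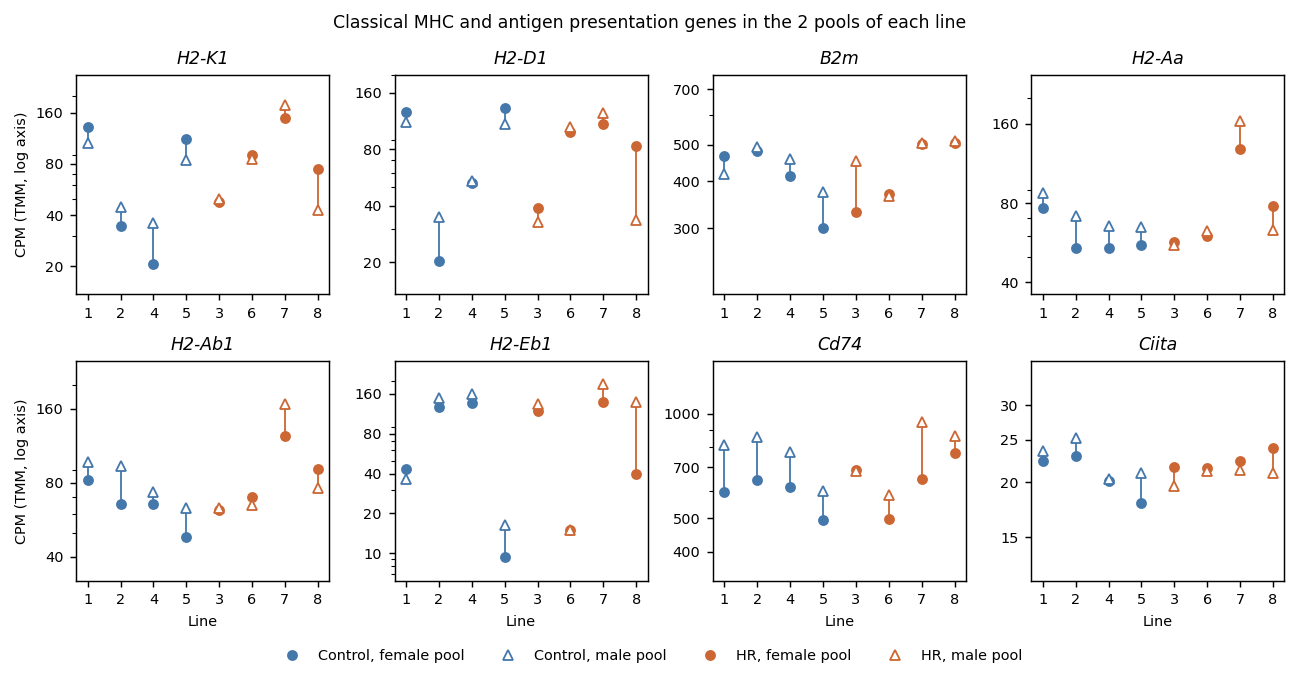
CPM (log axes that differ between panels) of the 8 genes in the female pool (filled circles) and the male pool (open triangles) of each Control line (blue) and HR line (orange), with a line joining the 2 pools. *H2-Eb1* spans from 9.31 to 190 CPM, whereas *Ciita* stays between 17.9 and 25.2 CPM.

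The heavy chain gene *H2-K1* varied 5.96-fold between the mean of line 7 and that of line 4. The female pools of Control lines 1, 2, 4 and 5 had 132, 34.5, 20.6 and 111 CPM of *H2-K1*, and the male pools 107, 44.4, 36.0 and 83.8 CPM. The female pools of HR lines 3, 6, 7 and 8 had 47.6, 90, 148 and 74.4 CPM, and the male pools 49.9, 85.8, 178 and 42.7 CPM. Both pools of lines 1, 5, 6 and 7 were above both pools of lines 2, 3, 4 and 8, and HR and Control lines were found on each side. *H2-K1* differed between lines within linetype (F = 18.3, adjusted *p* = 0.00205).

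*H2-D1*, the other class I heavy chain, followed a like pattern. In Control lines 1, 2, 4 and 5 the female pools had 126, 20.1, 53.0 and 134 CPM of *H2-D1*, and the male pools 112, 34.9, 53.9 and 109 CPM. In HR lines 3, 6, 7 and 8 the female pools had 38.9, 99.2, 109 and 83.0 CPM, and the male pools 32.7, 105, 125 and 33.5 CPM. Lines 1, 5, 6 and 7 were again the highest 4, and lines 2 and 3 the lowest 2, with a 4.55-fold range between the means of lines 5 and 2 (F = 12.9, adjusted *p* = 0.00547). Over 16 libraries, after the mean of each sex was taken off, the log2 CPM of *H2-D1* and *H2-K1* had a Pearson correlation of 0.82. The 2 pools of a line are not independent. Both genes lie in the H2 region of chromosome 17 and share sequence, so this value is a description.

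The light chain gene *B2m* varied less, 1.51-fold from line 5 to line 8. Its CPM in the female pools were 467, 480, 412 and 301 in Control lines 1, 2, 4 and 5 and 331, 370, 501 and 504 in HR lines 3, 6, 7 and 8. The male pools had 418, 494, 459 and 374 CPM in these Control lines and 453, 366, 506 and 511 CPM in these HR lines. Lines 7 and 8 were highest and lines 5 and 6 lowest, an order unlike that of the heavy chains. The test of lines gave F = 6.37 with adjusted *p* = 0.0263 for *B2m*, and this call was lost without line 2 (adjusted *p* = 0.0565), line 5 (0.0548), line 7 (0.0533) or line 8 (0.0560).

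The I-A genes *H2-Aa* and *H2-Ab1* moved together and stood out in HR line 7. The female and the male pool of line 7 had 129 and 164 CPM of *H2-Aa*, against 53.98 to 78.2 CPM in the other female pools and 55.3 to 87.3 CPM in the other male pools. For *H2-Ab1* line 7 had 124 and 167 CPM, against 47.9 to 91.3 CPM in the other female pools and 63.4 to 97.0 CPM in the other male pools. Line 7 was above all other lines for both genes in both sexes, and by the mean of the 2 pools Control line 1 was next. The correlation between the log2 CPM of *H2-Aa* and *H2-Ab1* over 16 libraries was 0.94. Lines differed for *H2-Aa* (F = 22.8, adjusted *p* = 0.00112) and *H2-Ab1* (F = 14.4, adjusted *p* = 0.00406). Without line 7 neither passed, with an adjusted *p* of 0.104 for *H2-Aa* and 0.0594 for *H2-Ab1*.

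*H2-Eb1*, the beta chain of I-E, varied more than any of the other 7 genes, 13.1-fold between the means of line 7 and line 5. The Control lines 1, 2, 4 and 5 had 43.2, 127, 136 and 9.31 CPM of *H2-Eb1* in the female pools and 36.3, 149, 159 and 16.5 CPM in the male pools. The HR lines 3, 6, 7 and 8 had 119, 15.04, 140 and 39.5 CPM in the female pools and 134, 14.9, 190 and 138 CPM in the male pools. Lines 5 and 6 were thus low in both sexes, with 146 to 505 counts per library. Lines 2, 3 and 4, which were low for *H2-K1*, were high for *H2-Eb1*, and the correlation between the 2 genes was -0.42. Line 7 was high for both. *H2-Eb1* had the smallest adjusted *p* of the 8 genes in the test of lines (F = 28.4, adjusted *p* = 0.00055), and leaving out any 1 line gave values from 2.41e-05 to 0.00425.

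*Cd74*, the invariant chain, had a range of 1.52-fold between lines 8 and 6. The female pools of Control lines 1, 2, 4 and 5 had 596, 642, 614 and 494 CPM of *Cd74*, and those of HR lines 3, 6, 7 and 8 had 686, 498, 649 and 772 CPM. The male pools had 813, 858, 775 and 598 CPM in the Control lines and 683, 582, 949 and 862 CPM in the HR lines. Lines 5 and 6 were lowest in each sex, as for *H2-Eb1*. The test of lines gave F = 7.04 and adjusted *p* = 0.0214 for *Cd74*, which was lost without line 6 (adjusted *p* = 0.108).

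*Ciita*, the class II co-activator, had means between 19.4 CPM in line 5 and 24.1 CPM in line 2, a 1.24-fold range. Its 16 libraries lay between 17.9 and 25.2 CPM with 281 to 1668 counts. The test of lines did not pass for *Ciita* (F = 1.99, adjusted *p* = 0.249). The 13.1-fold range of *H2-Eb1* thus stood beside a 1.24-fold range of *Ciita*.

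To set the lines against the pools, the spread between lines of a linetype was compared with the spread of the 2 pools of a line, both as SD of log2 CPM. The first is the SD of line means, each over 2 pools, and the second that of a single pool around its line. A ratio of 1 is therefore not the value expected without differences between lines. The 8 genes had a median SD of 0.45 between lines and 0.18 between pools, and the median of their ratios was 2.25. Over the 16507 genes tested for linetype, the medians were 0.20 and 0.16 with a ratio of 1.20. The ratio was 3.59 for *H2-Eb1*, 2.85 for *H2-Aa*, 2.55 for *H2-K1*, 2.27 for *H2-Ab1*, 2.24 for *H2-D1*, 1.89 for *Cd74*, 1.71 for *B2m* and 1.11 for *Ciita*. The range over lines of *H2-Eb1* was larger than that of 98.5% of all genes and that of *H2-K1* larger than that of 96.1%, whereas *B2m* and *Cd74* were near the middle with 53.3% and 53.6%.

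**Figure D2:**
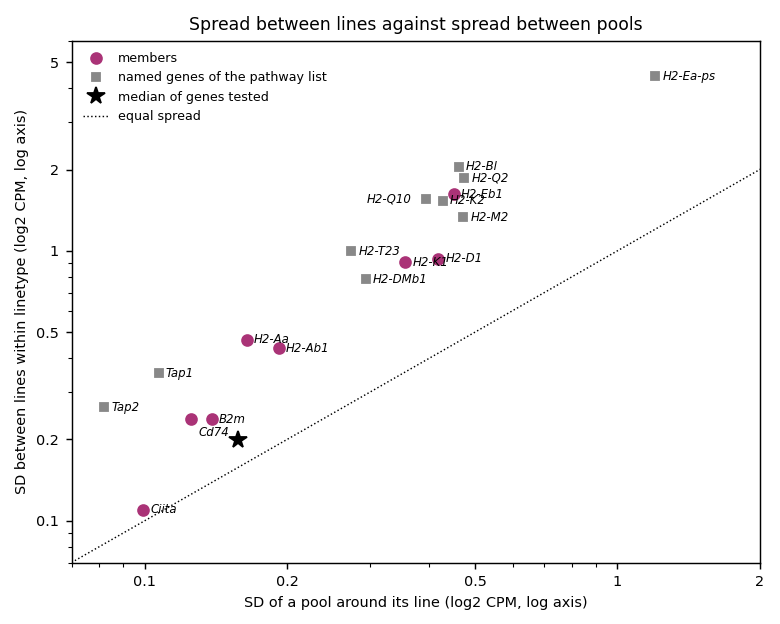
SD of log2 CPM between lines of a linetype (vertical, log axis) against the SD of a pool around its line (horizontal, log axis) for the 8 genes (circles) and 10 further genes of the pathway (squares), with the median of 16507 genes as a star. All circles lie above the dotted line of equal spread, with *Ciita* nearest to it at a ratio of 1.11.

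The pools of HR line 8 disagreed for some of the H2 genes. Its female pool was higher than its male pool by 1.31 on the log2 scale for *H2-D1* and by 0.80 for *H2-K1*, and the difference, female minus male, was -1.80 for *H2-Eb1*. After the mean difference of the sexes was taken off, these values were larger in size than in 99.8% (*H2-D1*), 99.4% (*H2-K1*) and 99.8% (*H2-Eb1*) of 11359 genes with at least 100 counts in every library. *H2-Aa* (0.31) and *H2-Ab1* (0.26) ranked at 97.3% and 97.0% in line 8. *B2m* (-0.02) and *Cd74* (-0.16) differed little between the pools of line 8. Over the 11359 genes the median size of the difference in line 8 was 0.086, the lowest of the 8 lines. In the male pool of line 8, *H2-K1*, *H2-D1* and *H2-Eb1* were at levels like those of line 3, and in the female pool *H2-Eb1* was at a level like that of line 1. Each pool holds 3 mice, and the sex of the pool and the mice drawn cannot be told apart. In other lines the pools also differed for single genes, by -0.81 for *H2-K1* in line 4, by -0.79 for *H2-D1* in line 2 and by -0.82 for *H2-Eb1* in line 5. With the mean sex difference taken off, these were larger in size than in 98.4%, 99.9% and 80.9% of the 11359 genes. The rank of *H2-D1* in line 2 was thus as high as those of *H2-D1* and *H2-Eb1* in line 8.

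The comparison of HR with Control lines asked whether selection for running went along with a change in these genes. Of all genes tested, 0.0242% passed (4 of 16507, with 545 at an unadjusted *p* under 0.05), and none of the 8 genes did in edgeR's test (none at an unadjusted *p* under 0.05, and none in DESeq2). The log2 fold changes of HR over Control with their standard errors were 0.33 ± 0.41 for *H2-K1*, -0.04 ± 0.40 for *H2-D1*, 0.06 ± 0.12 for *B2m*, 0.34 ± 0.22 for *H2-Aa*, 0.30 ± 0.21 for *H2-Ab1*, 0.20 ± 0.63 for *H2-Eb1*, 0.08 ± 0.12 for *Cd74* and -0.01 ± 0.07 for *Ciita*. Their median was 0.14, against 0.00 over all genes tested. This fit takes the 2 pools of a line as independent, although they deviated together, so its standard errors are too small. With the pools of each line summed they were 0.53 for *H2-K1* and 0.83 for *H2-Eb1*, and no gene of the whole table passed either in edgeR with these sums (207 at an unadjusted *p* under 0.05) or in limma with line as a random effect (262). In the fit with separate pools, the standard errors of *Ciita*, *B2m* and *Cd74* were at most 0.12, while those of the H2 genes were 0.21 to 0.63. Without line 7 the log2 fold changes of *H2-K1* (-0.14), *H2-Aa* (-0.08), *H2-Ab1* (-0.04), *H2-Eb1* (-0.18) and *B2m* (-0.02) were negative.

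With lines as the units and RPKM as the measure, none of the 8 genes passed either. The mean log2(RPKM + 1) of 4 HR lines minus that of 4 Control lines was 0.43 for *H2-K1*, -0.08 for *H2-D1*, 0.05 for *B2m*, 0.22 for *H2-Aa*, 0.23 for *H2-Ab1*, 0.28 for *H2-Eb1*, 0.07 for *Cd74* and 0.00 for *Ciita*. Exact two-sided permutation tests over the 70 assignments of lines, where the smallest possible *p* is 0.0286, gave unadjusted *p* from 0.571 for *H2-K1* to 0.971 for *Ciita*. The values of the linetypes overlapped for each of the 8 genes.

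Within the sexes, which may each be a single sequencing run, the comparison of HR with Control called 0% of genes in males (0 of 16361 in edgeR, 184 at an unadjusted *p* under 0.05, 11 in DESeq2) and 0% in females (0 of 16326, 316 unadjusted, 5 in DESeq2). In females the log2 fold changes of *H2-Aa* and *H2-Ab1* were 0.44 ± 0.26 and 0.41 ± 0.24, and in males 0.25 ± 0.34 and 0.18 ± 0.32. Without line 7 those of *H2-Aa* and *H2-Ab1* were 0.11 and 0.19 in females and -0.26 and -0.26 in males. For *H2-Eb1* they were -0.01 ± 0.85 in females and 0.39 ± 0.84 in males, and leaving out 1 line moved the value in males between 0.046 (without line 5) and 0.83 (without line 4). The interaction of sex and linetype was called for 0% of genes (0 of 16757 in edgeR, 77 unadjusted, 0 in DESeq2).

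**Figure D3:**
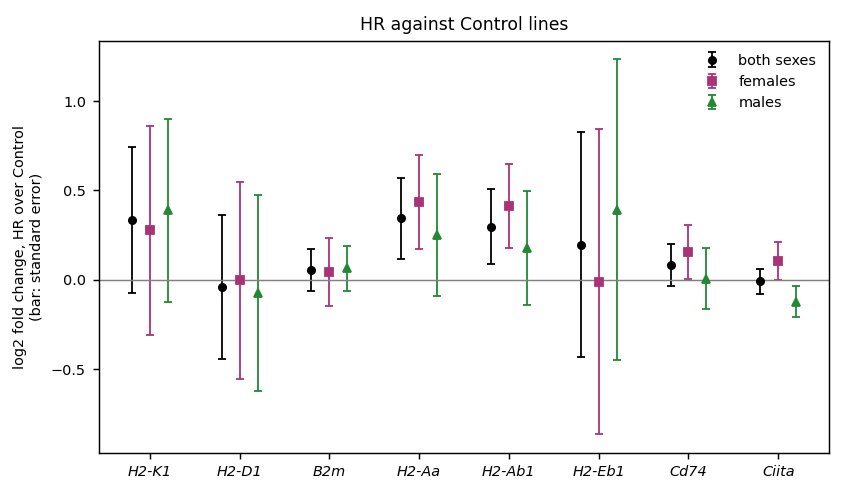
Log2 fold change of HR over Control lines (vertical) for the 8 genes in both sexes together (circles), in females (squares) and in males (triangles), with bars of 1 standard error. Bars of *H2-K1*, *H2-D1* and *H2-Eb1* are the widest, with a standard error of 0.63 for *H2-Eb1* in both sexes together.

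Between the sexes, 0.188% of genes passed (31 of 16507) and none of the 8 did in edgeR's test or in DESeq2. *Cd74* had the smallest *p* of the 8, with a log2 difference, female minus male, of -0.31 ± 0.12 (unadjusted *p* = 0.0182, adjusted *p* = 0.482), and it was lower in the female pool in 7 of 8 lines. With line as a block, for which 87 genes passed, the difference of *Cd74* was -0.30 ± 0.06 with an adjusted *p* of 0.0664. The differences of the other 7 genes lay between -0.40 for *H2-Eb1* and 0.13 for *H2-D1*. Sex and sequencing run cannot be told apart if each sex was sequenced in 1 run.

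The other genes of antigen presentation were counted over a list of 55, of which 54 were in the tables. Lines within linetype differed in 22 of the 49 tested (44.9%, against 27.7% of all genes). None of the 48 tested for linetype and none for sex passed. The 10 with the smallest *p* in the test of lines were *H2-Ea-ps*, *H2-Q2*, *H2-Q10*, *H2-K2*, *H2-Bl*, *H2-T23*, *H2-DMb1*, *Tap1*, *Tap2* and *H2-M2*, and all 10 lie on chromosome 17. The list was chosen by name and holds many H2 genes of that chromosome, so this count is no result about position.

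*H2-Ea-ps* is the reference's entry for the alpha chain of I-E, the partner of *H2-Eb1*, and is annotated as a polymorphic pseudogene because the gene is inactive in some strains, C57BL/6 among them. Its counts in the female and male pools were 7446 and 9045 in line 7, 3315 and 2083 in line 1, 164 and 26 in line 8, 111 and 119 in line 6 and 28 and 73 in line 5. In lines 2, 3 and 4 the counts of *H2-Ea-ps* were 0 to 25 per library, where 3 counts or fewer were found in 5 of 6 libraries. Lines 7 and 1 were thus far above the others in both pools (F = 69.1, adjusted *p* = 3.47e-05). Of all genes tested, *H2-Ea-ps* was the most like *H2-K1* over 16 libraries (r = 0.91).

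Among further class I genes near *H2-K1* and *H2-D1*, *H2-Q2* and *H2-K2* had other orders. *H2-Q2* was highest in lines 3 (16.3 CPM), 2 (11.7), 8 (7.69) and 4 (6.89) and lay between 0.748 and 1.59 CPM in lines 1, 5, 6 and 7. The pseudogene *H2-K2* was also highest in lines 3 (3.20 CPM), 2 (2.46), 4 (2.15) and 8 (1.31), against 0.203 to 0.473 CPM in the others. *H2-Q2* and *H2-K2* were thus high in the 4 lines in which *H2-K1* was low. Their pools in line 8 differed by -1.18 for *H2-Q2* and -1.32 for *H2-K2* (log2, female minus male), the direction of *H2-Eb1* there. *H2-Q10*, which shares words with *H2-K1*, was highest in line 7 (4.93 CPM) and next in line 1 (1.61 CPM). These lines were also highest and next for *H2-K1*. Whether reads of a class I gene were counted for another class I gene was not tested.

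In HR line 6 other class I genes were low. *H2-Bl* had 1 count in each pool of line 6, against 19 to 431 counts in the other libraries. *H2-T23*, which encodes the peptide-presenting molecule Qa-1, had 3.34 and 2.94 CPM in the female and male pools of line 6, against 8.88 to 28.8 CPM elsewhere. *H2-M2* went the other way, with 1.32 CPM in line 6 and 0.0648 to 0.607 CPM in the other lines.

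Genes that load peptides onto MHC molecules were also among the 10. *H2-DMb1*, a chain of the class II peptide exchanger, ran from 7.69 CPM in line 3 to 40.6 CPM in line 7. *Tap1* and *Tap2*, the 2 subunits of the peptide transporter that feeds class I molecules, were lowest in line 7 (15.6 and 36.9 CPM) and highest in lines 2 and 3, with 30.1 CPM of *Tap1* in line 2 and 62.1 CPM of *Tap2* in line 3. In line 7 high *H2-K1*, *H2-Aa*, *H2-Ab1* and *H2-DMb1* thus stood beside low *Tap1* and *Tap2*.

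**Figure D4:**
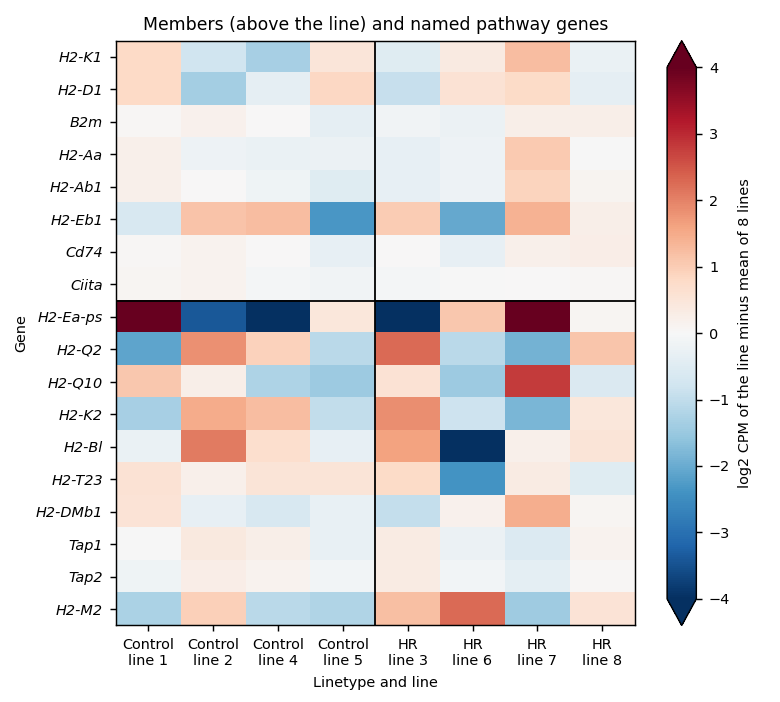
Log2 CPM of each line minus the mean of the 8 lines (colour, red above and blue below) for the 8 genes and, under the horizontal line, 10 further genes of the pathway, with Control lines on the left and HR lines on the right. Lines 2, 3 and 4 are blue for *H2-K1*, *H2-D1* and *H2-Ea-ps* and red for *H2-Eb1*, *H2-Q2* and *H2-K2*, and *H2-Ea-ps* exceeds the colour scale in lines 1, 3, 4 and 7.

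In the stretch from *H2-K1* to *H2-D1*, at chr17:33996017-35267499, 10 of 13 tested genes named H2- differed between lines (76.9%), *H2-K1* and *H2-D1* and the 3 class II chains among them. Of the 66 other genes tested there, 15 differed (22.7%), beside 27.7% of all genes. The 9 nonclassical H2-Mv genes of vomeronasal neurons were also read by line, with 8 of 9 called, and their summed level ran from 572 CPM in line 3 to 1303 CPM in line 1. Of 16 genes induced by interferon, 6 were called (37.5%), and their summed level was lowest in line 6 (200.1 CPM) and highest in line 3 (310 CPM).

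Class II molecules are best known from macrophages, dendritic cells and B cells, so the marker genes of these cells were read in the same libraries. The 9 macrophage markers summed to 120.3 CPM in lines 2 and 8 and to 460 CPM in line 3. Most of this range came from *Lyz2*, a lysozyme gene, with 31.3 and 30.9 CPM in lines 2 and 8 and 335 CPM in line 3. The other 8 macrophage markers summed to 88.9 CPM in line 2, 89.4 CPM in line 8, 124 CPM in line 3 and 125 CPM in line 5. Line 7, with the highest *H2-Aa*, had 91.2 CPM of these 8 and 6.40 CPM of the leukocyte gene *Ptprc*, the lowest of the 8 lines, while line 3 had 13.6 CPM. The 7 dendritic cell markers summed to 29.5 to 39.7 CPM, of which *Zbtb46* made up 21.8 to 33.9 CPM. The other 6 were lowest in line 7 with 4.16 CPM and highest in line 6 with 8.21 CPM. The 4 B cell markers summed to at most 8.40 CPM in a library and the 6 T cell markers to at most 5.11 CPM. In the test of lines, *Ptprc*, 4 of 9 macrophage markers (44.4%) and 2 of 7 dendritic cell markers were called. None of the 4 B cell and 4 T cell markers tested was called, and the share over all genes was 27.7%. The part of these cells in the differences between lines was not tested. The markers of vomeronasal neurons *Omp*, *Gnai2* and *Gnao1* summed to 2870 to 4336 CPM per line. The channel gene *Trpc2* had 259 to 417 RPKM over the 16 libraries, while the count tables list it at 0.

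RPKM and counts were deposited separately, and their ratio moved by line for some of the H2 genes. The log2 ratio of RPKM to CPM, with the medians of gene and library taken off, ranged over 1.02 in *H2-D1*, from -0.70 in the female pool of line 3 to 0.33 in the female pool of line 4. The range was 0.50 in *H2-Aa*, 0.50 in *H2-K1*, 0.26 in *H2-Ab1* and 0.19 in *H2-Eb1*. It was 0.03 in *B2m*, 0.05 in *Cd74* and 0.07 in *Ciita*, beside a median of 0.07 and a 99th percentile of 0.60 over 11359 genes. Thus the genes outside the MHC region gave the same picture in either unit, whereas the fold between 2 lines of *H2-D1* depended on the unit. For example, lines 4 and 3 had 53.5 and 35.8 CPM of *H2-D1* but 94.1 and 34.6 RPKM.

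**Figure D5:**
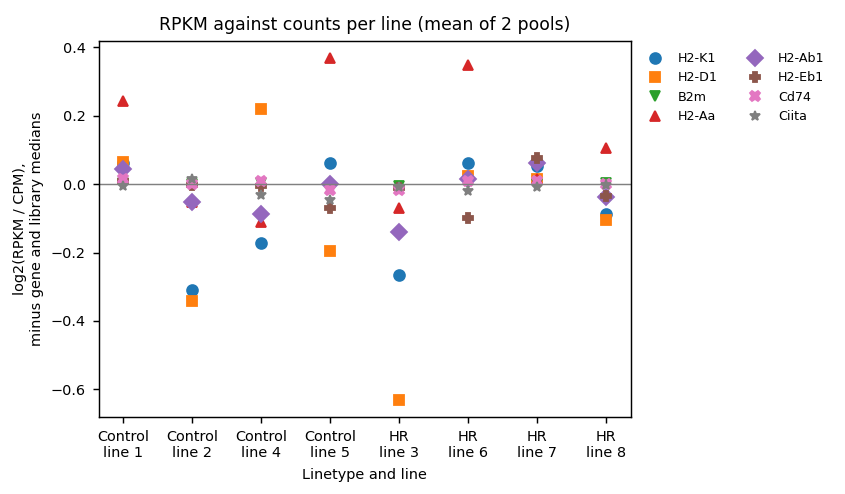
Log2 ratio of RPKM to CPM, with the medians of gene and library taken off, as the mean of the 2 pools of each line (points, 1 symbol for each of the 8 genes). *H2-D1* lies at -0.63 in line 3 and 0.22 in line 4 and *H2-Aa* at 0.37 in line 5 and 0.35 in line 6, while *B2m*, *Cd74* and *Ciita* stay near 0.

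For each gene the 3 genes most like it over 16 libraries were found, by the Pearson correlation of log2 CPM after the mean of each sex was taken off. Apart from *H2-Ea-ps*, those of *H2-K1* were *Btnl2* (0.87) and *Zbtb44* (0.87), and those of *H2-D1* were *Cyp4f16* (0.93), *Rgl2* (0.89) and *Btnl2* (0.88). *H2-Aa* was most like *H2-Ab1* (0.94), 6330418K02Rik (0.90) and *H2-DMb1* (0.89), and *H2-Ab1* was most like *Mfsd1* (0.95), *H2-Aa* (0.94) and *Padi2* (0.92). For *H2-Eb1* they were *Dbn1* (0.93), *Vmn1r40* (0.92) and *Shisa6* (0.91), for *Cd74* *Vmn1r49* (0.90), *Snapc2* (0.89) and *Haus4* (0.89), for *B2m* *Cacng7* (0.92), *Tsacc* (0.91) and *Hmgn3* (0.90) and for *Ciita* *Emc8* (0.92), *Pnmal1* (0.90) and *Dcun1d2* (0.90). With 8 lines and 16507 genes compared, values of this size are a description of these libraries.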

How the data were processed

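RNA was depleted of ribosomal RNA and sequenced in directional libraries with single reads. The authors aligned reads to GRCm38 with STAR 2.6.1d, accepting 0 mismatches and 1 location. The deposited count tables hold raw read counts per gene, with 1 table per sex, and the deposited RPKM tables hold values that the authors obtained with Cufflinks. The counter, annotation and use of strand for the counts are not given in the sources used here. In the male count table, reads listed as unmapped came to 16.1 to 17.7%, reads on no feature to 16.7 to 18.5% and ambiguous reads to 0.837 to 1.10%, and these entries were left out. Each of the tables held 4 duplicate entries, which were also left out.

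Counts were tested in R 4.3.3 with edgeR 4.0.16 (quasi-likelihood test, TMM, filterByExpr with a minimum count of 10), with Benjamini-Hochberg adjustment over all genes tested and a threshold of 0.05. The models held sex and linetype, or sex and line for the 6 contrasts of lines within linetype. Log2 CPM used a prior count of 2. RPKM were tested over line means of log2(RPKM + 1) by exact permutation. Alternatives were DESeq2 1.42.0, its size factors, no filter, sums of the pools of a line, limma 3.58.1 with line as a random effect, a line block, pseudocount 0.1, log2 CPM, a low-RPKM filter of 0.1 and leaving out each line. Line numbers in the labels pair the male and female pool of a line. Their deviations from group means correlated across genes with r from 0.321 to 0.708, and in 8 of 8 lines the own partner was highest. The edgeR tests were first run on simulated counts. Outside the test of lines these counts held no effect of line, so they could not check the standard errors for linetype. Depth bears on counting error alone, and precision rests mainly on having 4 lines in each linetype. Positions come from GENCODE release 21 for GRCm38 and promoters from RefSeq. Genes named besides the 8 were the 10 of the pathway list with the smallest *p* between lines and the 3 genes most like each of the 8. *H2-Ea* itself is not among the genes used here. The genes, lists and tests were chosen with earlier results of these data known.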

Additional observations from a re-analysis of the deposited data

Results flagged for a closer look

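In 48 groups of 4 values (each of the 8 genes in HR and Control lines, for males, females and line means), 5 had a value farther from its neighbour than Dixon's 95% limit allows, and chance alone gives about 1 in 20. *H2-Aa* was high in line 1 among Control females (ratio 0.919, log2 CPM 6.26 against 5.80 in the next line) and among Control line means (0.873), and in line 7 among HR males (0.879, log2 CPM 7.36 against 5.98). *H2-Eb1* was low in line 6 among HR males (0.864, log2 CPM 3.90 against 7.07). *Ciita* was low in line 3 among HR males (0.851), with a log2 CPM of 4.30 against 4.40.

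*Ciita* was higher in the female pool in all 4 HR lines and higher in the male pool in all 4 Control lines, and the difference between these effects was 0.22 on the log2 scale. In edgeR's interaction test its unadjusted *p* was 0.115, and it did not pass after adjustment.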

How the results depend on the processing

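The test of lines within linetype called 7 of the 8 genes under DESeq2, its size factors and no filter, and 4 to 7 when 1 line was left out, with 4 without line 7. All genes called numbered 7307 in DESeq2 and 3065 to 4967 without 1 line, and those of the pathway list 35 in DESeq2. No linetype, sex or interaction test called any of the 8 genes under any alternative run. For linetype, genes called numbered 30 in DESeq2, 0 with sums of pools, 0 with limma and line as a random effect, and 1 to 17 without 1 line. In males these were 11 in DESeq2 and 0 to 1 without 1 line, and in females 5 and 0 to 2. For sex they were 19 with no filter, 182 in DESeq2, 13 to 25 without 1 line, and 87 with line as the block that pairs the pools, which changed no call among the 8 genes.

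The direction of HR against Control depended on single lines. Leaving out 1 line gave log2 fold changes from -0.14 to 0.70 for *H2-K1*, -0.32 to 0.22 for *H2-D1*, -0.040 to 0.13 for *B2m*, -0.081 to 0.49 for *H2-Aa*, -0.044 to 0.44 for *H2-Ab1*, -0.18 to 0.61 for *H2-Eb1*, -0.0040 to 0.19 for *Cd74* and -0.057 to 0.045 for *Ciita*. In males they were -0.26 to 0.41 for *H2-Aa*, -0.26 to 0.32 for *H2-Ab1* and 0.046 to 0.83 for *H2-Eb1*, and in females 0.11 to 0.58 for *H2-Aa*, 0.19 to 0.54 for *H2-Ab1* and -0.45 to 0.39 for *H2-Eb1*. On log2(RPKM + 1) over lines they were -0.61 to 0.38 for *H2-D1*, -0.062 to 0.13 for *B2m*, -0.052 to 0.43 for *H2-Aa*, -0.055 to 0.41 for *H2-Ab1*, -0.42 to 1.01 for *H2-Eb1*, -0.038 to 0.19 for *Cd74* and -0.049 to 0.051 for *Ciita*. For *H2-K1* on log2(RPKM + 1) they were 0.046 to 0.81, so its sign did not turn on this scale. The sign of *H2-D1* also turned in limma (0.034) and on log2 CPM over lines (0.035), and that of *Ciita* on log2 CPM over lines (-0.0010). The sex difference of *Ciita* ran from -0.031 to 0.026 without 1 line. The cause was not tested. Pools of 3 mice with 1 pool per sex and line, and counting without mismatches, limit what these tests can show.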
